A study of Homo sapiens with 4 samples.

Results

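The histone and MHC interval of chromosome 6 comprised all CLIP-seq peaks whose midpoint lay between positions 26000001 and 33500000, on either strand. It held 1149 of the 278959 peaks listed in 4 libraries. The members were chosen by position alone and were divided at fixed limits into a histone part (26000001 to 27900000, 292 peaks), an olfactory receptor and zinc-finger part (27900001 to 29600000, 212 peaks) and the MHC (29600001 to 33500000, 645 peaks). Positions are given as GRCh37: the submitters' processing notes name GRCh38, but in 3 of the 4 lists peaks on chromosome 6 ran past the end of that build's chromosome 6. No annotation of GRCh37 was used here, so the names of the parts come from the limits that define them, no peak is assigned to a gene, exon, intron or UTR, and the labels of the parts could not be checked against gene models.

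The samples were HCT116 cells, a human colorectal carcinoma cell line, with wild-type SAF-A. SAF-A (also hnRNP U) is an abundant nuclear protein that binds RNA and chromatin. Cells were cross-linked with ultraviolet light, lysed and treated with RNase, and each lysate was divided into an input, which received no antibody, and a pull-down with an antibody against SAF-A. There were 2 input and 2 pull-down libraries, all of the same genotype, and the labels name no other treatment. The labels do not state whether the replicates are separate cultures. The p-values therefore reflect the spread among these libraries alone, and that spread may be technical. The lists held 29386 and 42256 peaks for inputs 1 and 2 and 96061 and 111256 peaks for pull-downs 1 and 2. Read depth is unknown, because only peaks were used, and a peak gives no RNA level.

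Replication-dependent histone genes are short, lack introns and are transcribed mainly in S phase into mRNAs that end in a stem-loop rather than a poly(A) tail. In this stretch of chromosome 6 they are interspersed with many tRNA genes. The olfactory receptor genes that follow are active chiefly in olfactory neurons, while the zinc-finger genes beside them encode DNA-binding proteins. The MHC carries, in order, class I genes that present peptides from inside the cell, a class III stretch densely packed with genes of diverse function, and class II genes, which are normally expressed by antigen-presenting cells. In the RefSeq gene order of GRCh38.p14, used for names and order alone, the stretch from H1-1 to H2BC17 held 53 protein-coding histone genes and 98 tRNA genes. The stretch from there to HLA-F held 16 protein-coding olfactory receptor genes and 11 zinc-finger genes. The stretch from there to HLA-DPB1 held 127 protein-coding genes, 18 of them HLA genes. Histone and HLA genes include near-identical copies, and the placing of reads that match several of them is something the sources used here leave unstated.

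The interval took a larger share of the input lists than of the pull-down lists, and the gap was widest in the MHC. Shares are given as peaks per 10000 listed peaks of the same library. The interval held 71.5 and 72.4 peaks per 10000 in inputs 1 and 2 and 29.9 and 31.1 in pull-downs 1 and 2. Both inputs lay above both pull-downs, with means of 71.9 ± 0.67 and 30.5 ± 0.86 (SD, n = 2 each), a 2.36-fold higher share in input. The rest of chromosome 6 went the other way by a small margin, with 480.5 and 467.9 peaks per 10000 in the inputs against 516.9 and 511.8 in the pull-downs. An exact permutation test of 2 samples against 2 cannot give a two-sided p below 0.333, which is what it gave for each of these shares.

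In the MHC, the share was 45.6 and 44.7 peaks per 10000 in the inputs against 14.8 and 16.2 in the pull-downs. The groups were far apart relative to their spread, at 45.2 ± 0.62 and 15.5 ± 0.99 (SD, n = 2), so that the input share was 2.92-fold higher. The histone part had 17 and 16.6 in the inputs against 8.02 and 8.54 in the pull-downs, a 2.03-fold higher share in input (16.8 ± 0.32 and 8.28 ± 0.37). The olfactory receptor and zinc-finger part had 8.85 and 11.1 in the inputs against 7.08 and 6.38 in the pull-downs, a 1.48-fold higher share in input (9.99 ± 1.6 and 6.73 ± 0.49). There the groups did not overlap either, but the inputs differed from each other by more than pull-down 1 did from input 1.

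**Figure D1:**
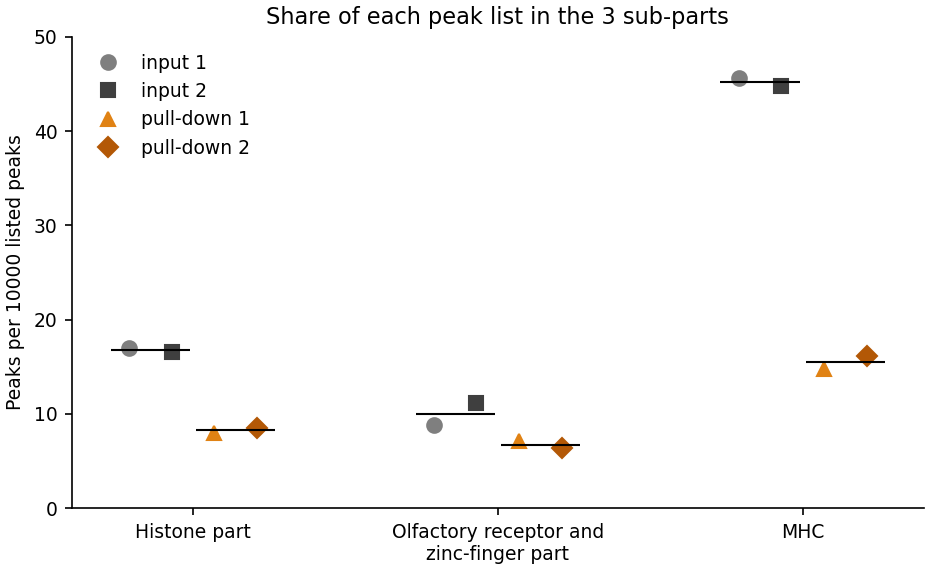
Peaks per 10000 listed peaks (y axis) in the 3 sub-parts (x axis) for each library; points are libraries and black lines are means of 2. Both inputs lie above both pull-downs in each sub-part, from 44.7 and 45.6 against 14.8 and 16.2 in the MHC to 8.85 and 11.1 against 6.38 and 7.08 in the olfactory receptor and zinc-finger part.

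The sub-parts were tested with limma beside all 1 Mb regions of the genome, on the log2 scale with 0.5 added to each count and with Benjamini-Hochberg adjustment over 2772 features. Across these features 11.0% were called lower in pull-down at an adjusted p of at most 0.05, and the median log2 ratio of pull-down to input was 0.11. All 3 sub-parts were called lower. The log2 ratio was -1.55 (SE 0.17, limma adjusted p = 3.8e-08) in the MHC, which ranked 32 of 2772 from the lowest. It was -1.02 (SE 0.16, limma adjusted p = 1.8e-05) in the histone part, which ranked 91. It was -0.57 (SE 0.17, limma adjusted p = 0.012) in the olfactory receptor and zinc-finger part, which ranked 263. That last call was lost without input 2 (-0.41, limma adjusted p = 0.051), without pull-down 1 (-0.65, limma adjusted p = 0.058), without pull-down 2 (-0.50, limma adjusted p = 0.19) and with narrow peaks alone (-0.38, limma adjusted p = 0.17).

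The pull-down lists are longer than the input lists, so the shares were also compared at equal length. Every list was reduced to its best-scoring 29386 peaks. The lowest score kept was then 10 and 13 in inputs 1 and 2 and 30 and 33 in pull-downs 1 and 2. Length and score cut-off thus changed together, and their parts were not tested apart. At that length the MHC held 134 and 131 peaks in the inputs against 37 and 43 in the pull-downs. It stayed lower in pull-down, at a log2 ratio of -1.72 (limma adjusted p = 0.025). The histone part then held 50 and 56 peaks in the inputs against 47 and 41 in the pull-downs, and its ratio of -0.27 was not called (limma adjusted p = 0.23). The olfactory receptor and zinc-finger part held 26 and 32 against 25 and 26 peaks, and its ratio of -0.18 was not called (limma adjusted p = 0.46).

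Histone-part peaks tended to rank high by score, more often in the pull-downs than in the inputs but with overlapping intervals. The score is a whole number that the authors list for each peak, of unstated meaning, and is used only for ranks within a list. The best-scoring 25% of each list held 32% and 35.7% of the histone-part peaks of inputs 1 and 2, and 51.9% (95% Wilson interval 41.0 to 62.7) and 40.0% (30.7 to 50.1) of those of pull-downs 1 and 2. Both pull-down shares exceeded both input shares, and the rest of the genome stood between 24.7% and 25.3% in all 4 libraries. MHC peaks of the inputs were rarer in that top 25%, at 14.2% (9.27 to 21.1) and 14.8% (10.5 to 20.6), against 23.9% and 21.7% in the pull-downs. These and later intervals cover counting error only.

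The difference between input and pull-down was then compared between sub-parts. The log2 ratio of the MHC share to the histone share was 1.43 ± 0.0076 in the inputs and 0.90 ± 0.028 in the pull-downs (SD, n = 2), a difference of -0.53. Against the olfactory receptor and zinc-finger part the ratio was 2.19 ± 0.25 in the inputs and 1.20 ± 0.20 in the pull-downs, a difference of -0.98. For the histone part against that same part the difference was -0.46. The groups did not overlap in any of the 3 pairs, and each exact permutation p was 0.333, the smallest possible. Any 2 of these ratios fix the third, so the 3 pairs are not separate results. How often other pairs of regions show no overlap is not given here.

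At finer scale, 7 of the 8 regions of 1 Mb were called lower in pull-down and 0 higher, where 11.1% of 2776 regions genome-wide were called lower. No region of the interval was called higher at an unadjusted p under 0.05 either, since all 8 ratios were negative. Of 158 such regions on the rest of chromosome 6, 10 were called lower and 24 higher, and the lowest ratio there was -1.35. The region from 31000001 to 32000000, at the junction of class I and class III, stood lowest. It held 56 and 78 peaks in the inputs against 38 and 51 in the pull-downs, although the pull-down lists were longer. Pull-down over input, the log2 ratio of shares stood at -2.13 (SE 0.17, limma adjusted p = 1.4e-11), rank 9 of 2776 from the lowest.

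The other MHC regions were less even. From 33000001 to 34000000, which runs past the end of the interval, there were 27 and 39 input peaks against 30 and 36 pull-down peaks, a log2 ratio of -1.54. From 30000001 to 31000000 there were 38 and 53 against 42 and 62 peaks, a ratio of -1.37. From 32000001 to 33000000 there were 14 and 22 against 37 and 32 peaks, a ratio of -0.60 (limma adjusted p = 0.016). The MHC thus held both one of the lowest regions of the genome and, beside it, one with a much smaller difference.

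In the histone part, the region from 27000001 to 28000000 held 34 and 41 input peaks against 49 and 57 pull-down peaks, a log2 ratio of -1.06. The region from 26000001 to 27000000 held 16 and 29 against 28 and 38 peaks, a ratio of -0.97. From 28000001 to 29000000 the counts were 26 and 43 against 53 and 55, a ratio of -0.87. The region from 29000001 to 30000000, which spans the olfactory receptor genes and the start of class I, was the one not called, with 8 and 14 against 25 and 32 peaks (-0.18, limma adjusted p = 0.55). With lists of equal length 3 calls were left, at -1.38 (30000001 to 31000000), -2.36 (31000001 to 32000000) and -3.40 (33000001 to 34000000). The last of these regions runs past the end of the MHC, so its call covers peaks outside it. The share of regions genome-wide called at equal length is not given here.

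Windows of 500 kb located the change further. Of 14 windows with enough peaks to be tested, 11 were called lower in pull-down and 0 higher, where 14.2% of 3138 windows genome-wide were called lower; all 14 ratios were negative. The lowest was 31500001 to 32000000 in class III, with 42 and 62 input peaks against 26 and 35 pull-down peaks, log2 -2.30 (limma adjusted p = 2.4e-08), rank 13 from the lowest. It was followed by 33000001 to 33500000 at -1.90, in class II, and by 26000001 to 26500000 at -1.69, at the outer end of the histone part, where the counts were 11 and 20 against 13 and 14. The adjoining window, 26500001 to 27000000, showed no such gap, with 5 and 9 against 15 and 24 peaks and a ratio of -0.12. The other windows not called were 28000001 to 28500000 (-0.24) and 32000001 to 32500000 (-0.32). With lists of equal length 7 windows could be tested and 3 were called: 27000001 to 27500000 (-0.78), 30500001 to 31000000 (-1.73) and 31500001 to 32000000 (-2.53). The window from 26000001 to 26500000 lost its call there (-1.01, limma adjusted p = 0.087), and that from 33000001 to 33500000 fell under the minimum. The share of windows genome-wide called at equal length is not given here.

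One window went in the opposite direction. From 29000001 to 29500000, in the olfactory receptor stretch, the inputs held 0 and 2 peaks and the pull-downs 12 and 10. None of these peaks reached 50 bases. Its mean fell under the minimum of 10 peaks, so it was not tested at that minimum. Without a minimum it was called higher in pull-down (limma adjusted p = 0.039), the only such window in the interval. At the minimum of 10 peaks, 279 of 3138 windows genome-wide were called higher, and the share without a minimum is not given here. The size of the fitted ratio depends on the constant added, since input 1 had no peak in this window.

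**Figure D2:**
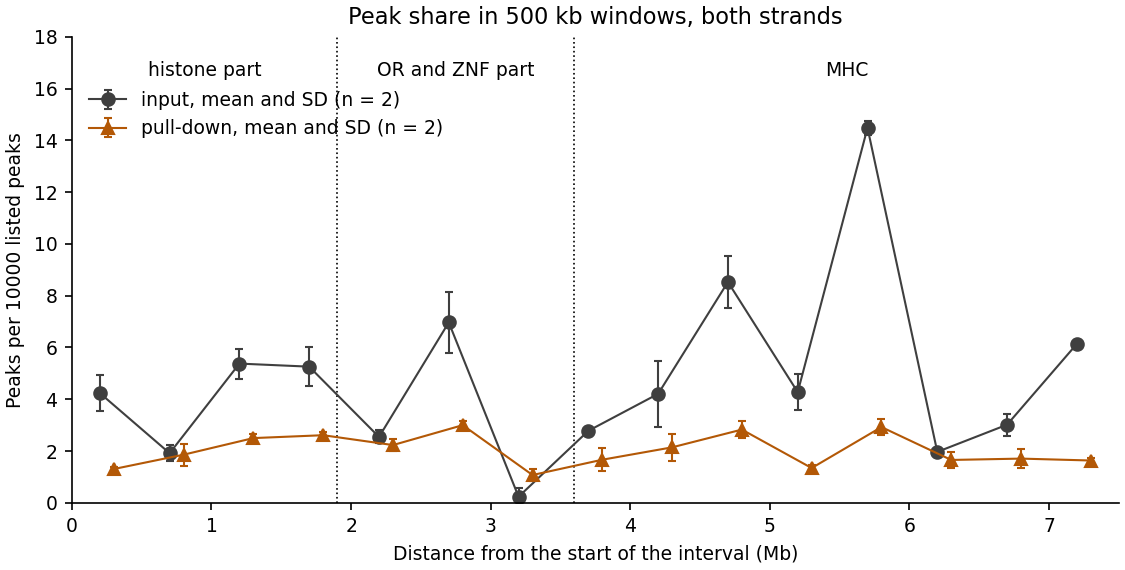
Mean peak share per 500 kb window (y axis, peaks per 10000 listed peaks) against distance from the start of the interval (x axis, Mb); bars are SD over 2 libraries and dotted lines part the 3 sub-parts. The input profile peaks at 14.5 in the window that starts at 5.5 Mb, where the pull-down mean is 2.93, and falls below the pull-down profile in the window that starts at 3 Mb.

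By class, with round limits that serve as description only, class III had the highest density of input peaks. It held 57.5 and 85.0 peaks per Mb in the inputs against 46.3 and 58.8 in the pull-downs. Its share was 15.7 and 16.1 peaks per 10000 in the inputs against 3.85 and 4.22 in the pull-downs, a 3.93-fold higher share in input. Class I stood at 20.4 and 18.7 against 6.66 and 8.45 (2.59-fold), and class II at 9.53 and 9.94 against 4.27 and 3.51 (2.50-fold). In the histone part, the outer block (26000001 to 26300000) had a share of 3.4 and 4.26 in the inputs against 0.94 and 0.81 in the pull-downs, 4.39-fold higher in input, from 10, 18, 9 and 9 peaks. The middle block, up to 27700000, stood at 11.9 and 9.94 against 5.83 and 7.01 (1.70-fold).

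Input peaks in the MHC were wide. Of the MHC peaks of inputs 1 and 2, 50.0% and 50.3% were at least 50 bases wide, against 12.7% and 25% of those of pull-downs 1 and 2. The inputs agreed closely and lay above both pull-downs, which differed more from each other. For the histone part the wide share was 30% and 28.6% in the inputs against 10.4% and 15.8% in the pull-downs. Corresponding shares for the olfactory receptor and zinc-finger part were 19.2% and 36.2% against 10.3% and 9.86%. The rest of the genome gave 22.0% and 26.4% in the inputs against 16.3% and 19.2% in the pull-downs. Each of the 3 differences, of -31.3, -16.2 and -17.6 percentage points, had an exact permutation p of 0.333.

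Median widths were given alongside. In the MHC they were 49.5 and 50 bases in the inputs against 15 and 18 in the pull-downs. Those of the histone part were 25 and 26 against 18 and 18, and in the olfactory receptor and zinc-finger part 17.5 and 22 against 15.5 and 16. The rest of the genome had medians of 14, 16, 14 and 15. In the pull-downs, therefore, the MHC median lay within 3 bases of the rest of the genome.

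Compared within libraries, the wide share of the MHC exceeded that of the histone part in 4 of 4 libraries, by 13.3 ± 9.2 percentage points (SD, n = 4, exact sign-flip permutation p = 0.125, adjusted over 3 pairs 0.19). It exceeded that of the olfactory receptor and zinc-finger part in 4 of 4 libraries, by 15.6 ± 11.7 percentage points (exact permutation p = 0.125, adjusted 0.19). The histone part exceeded the olfactory receptor and zinc-finger part in 3 of 4, by 2.3 ± 7.9 (exact permutation p = 0.625, adjusted 0.625). With 4 libraries this two-sided test cannot go below 0.125, and none of the pairs passed after adjustment. The MHC's margin over the histone part was 20.0 and 21.7 points in the inputs against 2.29 and 9.21 in the pull-downs.

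**Figure D3:**
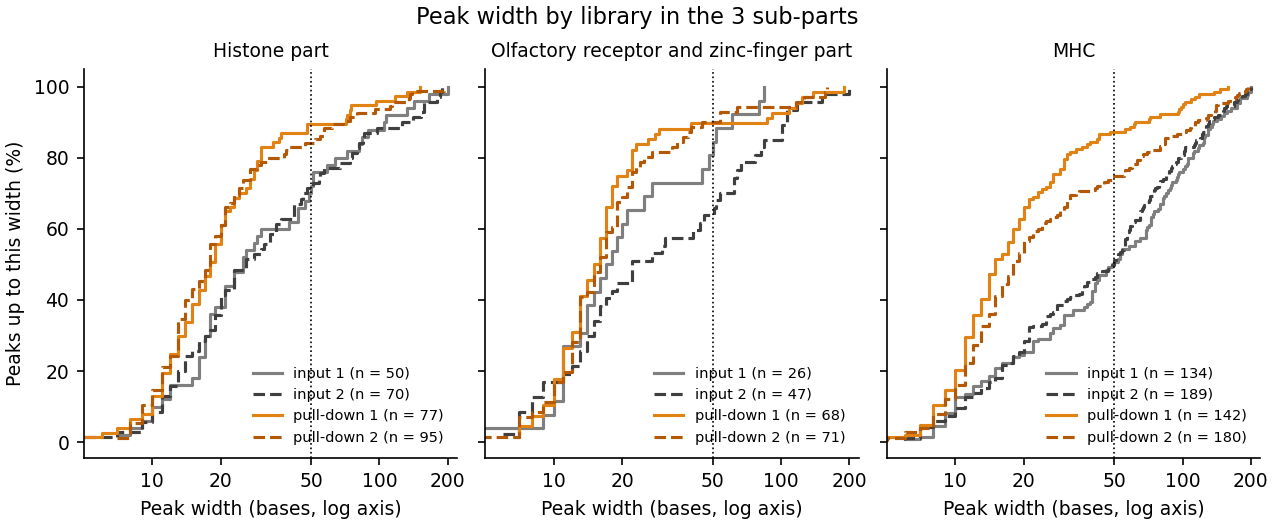
Cumulative share of peaks (y axis, %) by peak width (x axis, bases, log scale) in each sub-part, one line per library; the dotted line marks 50 bases. In the MHC the input curves cross 50 bases near 50%, while 12.7% and 25% of the pull-down peaks are at least that wide.

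The lower share in pull-down was not limited to wide peaks. Among wide peaks alone, the MHC took 103 and 84.6 per 10000 wide peaks of the inputs and 11.5 and 21.0 of the pull-downs, 5.77-fold higher in input. Among narrow peaks alone it took 29.3 and 30.3 per 10000 narrow peaks of the inputs and 15.4 and 15 of the pull-downs, 1.96-fold higher in input. The histone part was 3.37-fold higher in input among wide peaks and 1.80-fold among narrow ones. The olfactory receptor and zinc-finger part was 2.94-fold and 1.28-fold higher. There the wide peaks numbered 5 and 17 in the inputs against 7 and 7 in the pull-downs, too few for the limma fit. The difference among its narrow peaks was not called (limma adjusted p = 0.17). In class III, 58.7% and 61.8% of input peaks were wide, against 13.5% and 21.3% of pull-down peaks.

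Neighbouring input peaks of the MHC tended to share a strand, though not in class II of input 2. Peaks of a library were ordered by midpoint, and each pair of consecutive peaks was scored as same strand or not. In the MHC, 79.7% (95% Wilson interval 72.1 to 85.7) and 71.3% (64.4 to 77.3) of pairs were on the same strand in inputs 1 and 2, against 56.0% (47.8 to 64.0) and 57.0% (49.7 to 64.0) in pull-downs 1 and 2. Both inputs lay above both pull-downs, and the pull-downs differed by -0.80 and -1.05 percentage points from the rest of the genome, which stood at 57.8%, 59.2%, 56.8% and 58.0%. By class, inputs 1 and 2 gave 78.0% and 75.6% in class I and 82.2% and 80.6% in class III. In class II they gave 77.8% and 48.8%, the latter below the rest of the genome of input 2. Shares in the histone part were 55.1% and 47.8% in the inputs against 56.6% and 56.4% in the pull-downs. Those in the olfactory receptor and zinc-finger part were 72.0% and 45.7% against 61.2% and 57.1%, so that the inputs spanned both pull-downs.

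Between sub-parts, the MHC exceeded the histone part by 24.6 and 23.5 percentage points in the inputs and by -0.55 and 0.60 in the pull-downs (mean 12 ± 13.9, exact permutation p = 0.25, adjusted 0.5, higher in 3 of 4 libraries). It exceeded the olfactory receptor and zinc-finger part by 7.70 and 25.6 in the inputs and by -5.17 and -0.16 in the pull-downs (mean 7.0 ± 13.5, exact permutation p = 0.5, adjusted 0.5, higher in 2 of 4). The histone part minus the olfactory receptor and zinc-finger part averaged -5.0 ± 8.4 (exact permutation p = 0.375, adjusted 0.5, higher in 1 of 4). None of the 3 pairs passed.

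**Figure D4:**
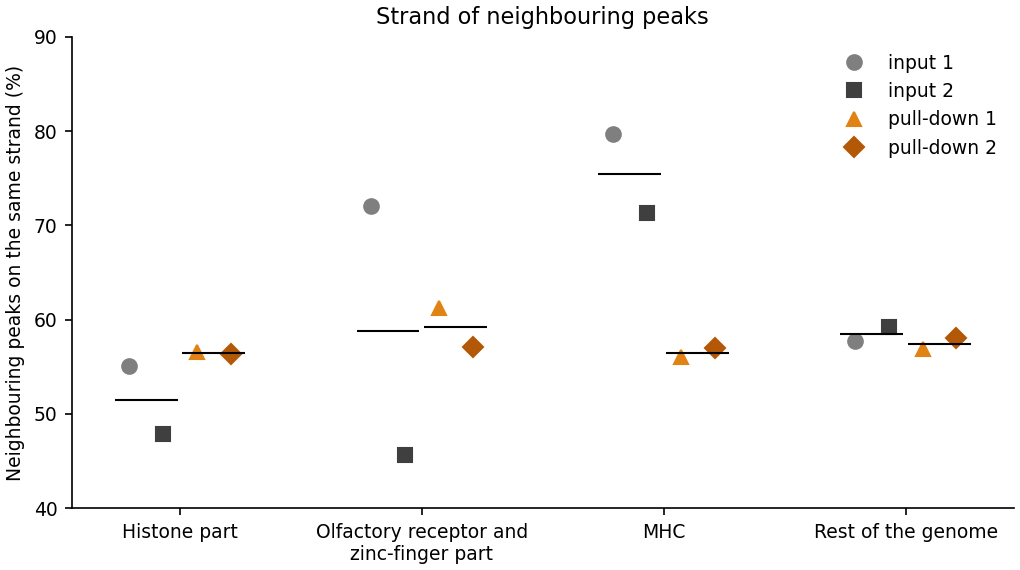
Percent of neighbouring peaks on the same strand (y axis, which starts at 40%) by sub-part and for the rest of the genome (x axis); points are libraries and black lines are means of 2. The MHC inputs, at 79.7% and 71.3%, lie above the MHC pull-downs at 56.0% and 57.0%, and the inputs of the olfactory receptor and zinc-finger part lie far apart, at 72.0% and 45.7%.

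MHC input peaks also lay closer together, and in every library outside the interval close neighbours shared a strand more often than distant ones. The median distance between neighbouring MHC peaks was 5.50 and 3.22 kb in the inputs and 15.5 and 11.6 kb in the pull-downs, against 50.2, 32.6, 16.9 and 13.9 kb in the rest of the genome. Among neighbours over 200 bases and up to 10 kb apart, 87.2% and 80.5% of MHC pairs shared a strand in the inputs, against 74.2% and 73.5% in the rest of the genome. In the pull-downs the same class of neighbours gave 66.7% and 58.9% in the MHC and 62.5% and 64.0% in the rest of the genome. Among neighbours over 10 kb apart, the MHC gave 68.5% and 49.2% in the inputs, on either side of the 53.0% and 53.4% found elsewhere.

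Runs of peaks on a single strand were correspondingly long. Runs of at least 5 peaks held 74.6% and 59.8% of the MHC peaks of the inputs and 43.7% and 28.9% of those of the pull-downs, with 34.1%, 36.6%, 32.3% and 34.8% in the rest of the genome. The mean run held 4.79 and 3.44 peaks in the inputs against 2.25 and 2.31 in the pull-downs. The longest was a run of 25 minus-strand peaks in input 1 from chr6:30895847-31572057, spanning 676 kb, of which 9 were wide. Input 2 held 27 minus-strand peaks and 1 plus-strand peak in that stretch.

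The pull-downs listed peaks of both strands in this stretch. Pull-down 1 held 20 minus-strand and 5 plus-strand peaks there, and pull-down 2 held 24 and 11. The plus-strand share was 3.57% in input 2 and 20.0% and 31.4% in the pull-downs. The stretch was chosen as the longest run of input 1, where that share is 0 by construction, so no test of the difference is given.

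The longest runs of the other libraries overlapped it. The longest of input 2 held 16 minus-strand peaks from chr6:30895842-31324987. The longest of pull-down 1 held 15 minus-strand peaks from chr6:30708639-31003253. That of pull-down 2 held 15 minus-strand peaks from chr6:31466252-31572071, where no library listed a plus-strand peak and the other 3 listed 9, 11 and 10 minus-strand peaks. In that stretch all 4 libraries therefore listed the minus strand alone.

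**Figure D5:**
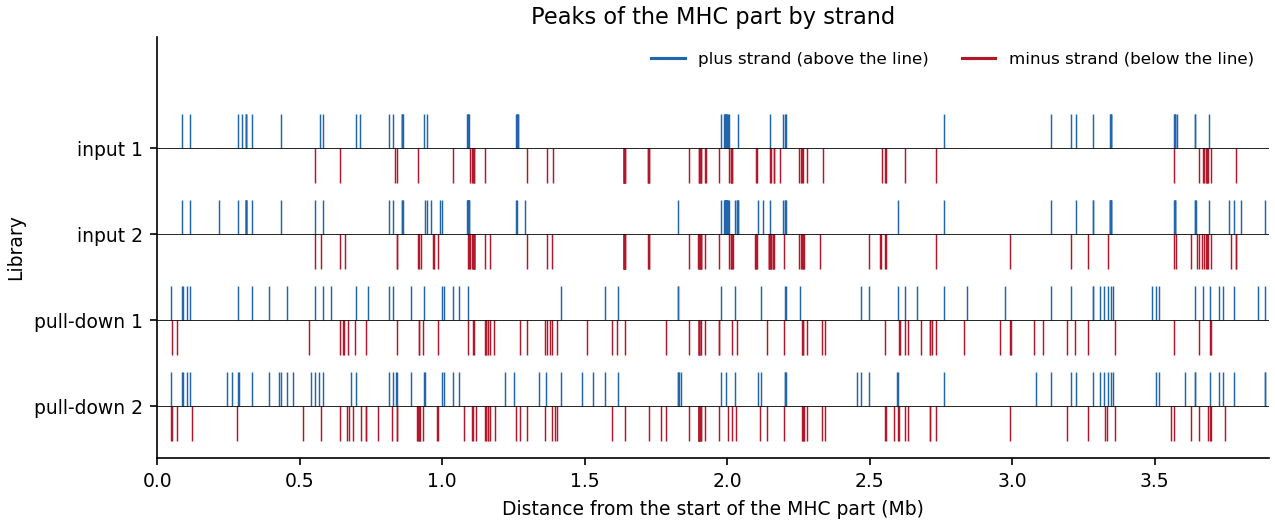
Position of every MHC peak (x axis, Mb from the start of the MHC part) in each library (y axis), with plus-strand peaks in blue above each line and minus-strand peaks in red below it. In the stretch of the longest run, which ends at the dense group of input peaks near the middle, the inputs hold 25 and 27 minus-strand peaks and 0 and 1 plus-strand peaks, where the pull-downs also hold 5 and 11 plus-strand peaks. The stretch was chosen by the strands of input 1, so this contrast is partly set by the choice.

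Runs in the other parts were shorter. In the olfactory receptor and zinc-finger part, input 1 held 9 plus-strand peaks from chr6:28643764-28752613, a stretch in which input 2 and the pull-downs also listed mainly the plus strand, with 10, 10 and 12 plus-strand peaks against 3, 1 and 1 on the minus strand. The longest run of pull-down 2 there was another, of 6 plus-strand peaks from chr6:28106357-28180857, where input 1 listed 1 peak and input 2 none. The longest runs of the histone part were 7 minus-strand peaks from chr6:27640268-27870759 in input 1, 5 plus-strand peaks from chr6:27339458-27471573 in input 2, 7 plus-strand peaks from chr6:27303286-27489336 in pull-down 1 and 9 minus-strand peaks from chr6:26583043-26703095 in pull-down 2. Apart from the 2 overlapping runs between positions 27303286 and 27489336, these lay in different places in each library.

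The strands of a single window could behave differently. Only 1 of 75 windows of 100 kb held enough peaks to be tested, chr6:31500001-31600000, at the start of class III. It held 16 and 22 peaks in the inputs against 11 and 16 in the pull-downs and was called lower in pull-down, where 41.2% of 352 windows genome-wide were called lower. The fitted log2 value was -2.04 with an SE of 0.23 (limma adjusted p = 0.00014). On the plus strand it held 8 and 13 input peaks against 1 and 2 pull-down peaks. On the minus strand it held 8 and 9 input peaks against 10 and 14 pull-down peaks. The plus-strand share was 50.0% and 59.1% in the inputs against 9.09% and 12.5% in the pull-downs, without overlap (exact permutation p = 0.333).

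In the pull-downs, the minus strand of this window had the highest share of any single-strand 100 kb window of the MHC, with 1.04 and 1.26 peaks per 10000 against 2.72 and 2.13 in the inputs. It also carried 3 sites found in both pull-downs and in no input, all 3 of those in the window. The next was the minus strand from 30700001 to 30800000, with 5 and 9 input peaks against 8 and 9 pull-down peaks. After the plus strand of the tested window, the highest input share lay on the minus strand from 31700001 to 31800000, with 7 and 13 input peaks against 2 and 3 pull-down peaks.

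In the histone part the plus strand from 26100001 to 26200000 held 3 and 6 input peaks and 0 in either pull-down. Its minus strand held 2 and 4 input peaks against 3 and 3 pull-down peaks, a mean share of 0.81 per 10000 in input and 0.29 in pull-down. The highest pull-down shares lay on the plus strand from 27500001 to 27600000 (2 and 3 input peaks, 5 and 6 pull-down peaks) and the minus strand from 26500001 to 26600000 (1 and 2, 4 and 7). Mean shares per 10000 were 0.70 in input and 0.53 in pull-down for the former and 0.41 and 0.52 for the latter. The highest input share lay on the plus strand from 27100001 to 27200000, with 5 and 4 input peaks against 3 and 6 pull-down peaks. In the olfactory receptor and zinc-finger part the plus strand from 28700001 to 28800000 led in the pull-downs, with 2 and 4 input peaks against 6 and 9 pull-down peaks. As a mean share per 10000 that was 0.81 in input and 0.72 in pull-down. The adjoining plus strand from 28600001 to 28700000 led in the inputs, with 7 and 8 input peaks against 5 and 6 pull-down peaks.

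Input peaks of the interval were found again in pull-down less often than input peaks elsewhere. A same-strand overlap of at least 1 base with a peak of either pull-down was found for 42.9% (95% Wilson interval 36.4 to 49.6) and 39.9% (34.5 to 45.4) of the interval's peaks of inputs 1 and 2, against 71.2% and 67.9% in the rest of the genome. Both inputs showed the gap, and with 2 inputs no test over samples was made. In the MHC it was 35.1% and 33.3%. The gap was present at both widths: among narrow MHC peaks 46.3% and 47.9% were found, against 80.6% and 79.2% of narrow peaks elsewhere, and among wide MHC peaks 23.9% and 18.9% were found, against 38% and 36.6%. In the histone part 56.0% and 52.9% were found, and in the olfactory receptor and zinc-finger part 57.7% and 46.8%.

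Replicates overlapped at rates not far from those elsewhere. Of the interval's peaks of pull-down 1, 66.9% (61.3 to 72.1) overlapped one of pull-down 2, against 65.6% in the rest of the genome. Of the peaks of input 1, 73.3% (67.0 to 78.9) overlapped one of input 2, against 77.7%. In the other direction of comparison, 40.1% and 35.8% of the peaks of pull-downs 1 and 2 overlapped an input peak, above the 29.9% and 26.6% of the rest of the genome.

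Sites listed in both inputs and in neither pull-down were common. Of 154 sites that both inputs listed, 76 (49.4%, 95% Wilson interval 41.6 to 57.2) touched no pull-down peak, against 19.7% in the rest of the genome and 15% in the rest of chromosome 6. In the MHC these were 55 of 95 sites (57.9%, 47.8 to 67.3), with a median width of 82 bases, against 85 bases for such sites in the rest of the genome. The histone part had 14 of 39 and in the olfactory receptor and zinc-finger part 7 of 20. The best ranked by score was chr6:28058832-28058853 on the plus strand, a site of 22 bases in the olfactory receptor and zinc-finger part with scores of 208 and 211, at rank 139 of 29386 and rank 193 of 42256. The best of the histone part was chr6:27027583-27027602 on the minus strand (scores 94 and 81), followed by chr6:26156555-26156680 on the plus strand, a wide site of 126 bases (scores 48 and 82). The best of the MHC was chr6:33289097-33289112 on the plus strand (scores 49 and 71), followed by chr6:31590866-31590962, 97 bases wide, in the 100 kb window described above and on its plus strand (scores 33 and 53).

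Sites listed in both pull-downs and in neither input made up 89 of 192 in the interval (46.4%, 39.4 to 53.4), against 57.0% in the rest of the genome. The MHC held 49 of 99 (49.5%), the histone part 20 of 52 (38.5%) and the olfactory receptor and zinc-finger part 20 of 41 (48.8%). Per Mb these were 12.6, 10.5 and 11.8 sites. Their median width was 19 bases over the interval. With lists of equal length there were 1, 4 and 2 such sites. Because the lists differ in length, the share free of input and the share free of pull-down cannot be set against each other.

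The best ranked of these pull-down sites were short. The first of the histone part was chr6:27731452-27731472 on the minus strand, of 21 bases (scores 65 and 48), followed by chr6:27844571-27844598 on the minus strand and chr6:26323071-26323110 on the plus strand. That of the olfactory receptor and zinc-finger part was chr6:28144580-28144599 on the plus strand, of 20 bases (scores 59 and 69), which lies within the longest run of pull-down 2 there. In the MHC it was chr6:32309852-32309866 on the minus strand, of 15 bases (scores 44 and 44). Next came chr6:29650335-29650346 on the minus strand, of 12 bases, and chr6:33339429-33339459 on the plus strand, of 31 bases. Their best ranks in the lists were 9437 of 96061 in the histone part, 9279 of 111256 in the olfactory receptor and zinc-finger part and 17606.5 of 96061 in the MHC, ranks of tied scores being averaged.

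Pull-down peaks were also spread more evenly in the MHC and in the olfactory receptor and zinc-finger part. The MHC spans 39 windows of 100 kb, of which 8 and 6 held no peak in the inputs against 0 and 2 in the pull-downs. The 5 fullest windows held 40.3% and 41.3% of the MHC peaks of the inputs and 28.9% and 29.4% of those of the pull-downs. For the olfactory receptor and zinc-finger part, 7 and 4 of 17 windows were empty in the inputs against 2 and 1 in the pull-downs, and the 5 fullest held 73.1% and 74.5% against 50.0% and 53.5%. For the histone part, 3 and 2 of 19 windows were empty in the inputs against 1 and 0 in the pull-downs, and the 5 fullest held 56.0% and 47.1% against 44.2% and 49.5%, which overlap. The number of peaks bears both on the number of empty windows and on the share in the fullest ones. The olfactory receptor and zinc-finger part held 26 and 47 input peaks against 68 and 71 pull-down peaks. The part of these peak numbers in the differences was not tested.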

How the data were processed

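CLIP-seq peaks of 2 input and 2 pull-down libraries were used as deposited, 1 list per sample, with positions, strand and a score whose meaning is not stated. Per the submitters' processing notes, the tools were STAR and featureCounts and the build GRCh38; of the peak caller, its threshold and all versions nothing is given in the sources used here. Scores that the authors deposited were used as a score only for ranks within a list. Peaks were at most 201 bases wide and scored at least 10. They were assigned by midpoint and counted in the sub-parts and in windows of 1 Mb, 500 kb and 100 kb over the whole genome. Shares as log2(peaks per 10000 + constant, 0.5 added to each count) were fitted with limma 3.58.1 (R 4.3.3; lmFit, eBayes with a trend) over features with a mean of at least 10 peaks, after a check on simulated data. Single values were tested by exact permutation (Python 3.11.15). Shares carry 95% Wilson intervals.

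Named items were all 1 Mb regions, the single-strand 100 kb windows with the highest input and pull-down shares or the most input-free sites, the longest run per library, and the 3 input-free and 2 pull-down-free sites of best mean rank per sub-part. Of 500 kb windows, those lowest, those not called and the one not tested were named after their values were seen. Members and lists were chosen with earlier results of these data known. The replicate numbers were not treated as pairs in the main fit. Each lysate was divided, but the labels do not state that same-numbered libraries come from the same lysate. Same-numbered libraries correlated in their deviations at r = 0.053 over 2776 regions, which cannot settle whether they are paired. A fit with the replicate number as a block is given at the end. Alternatives were lists of equal length, the better-scoring 50%, narrow or wide peaks alone, other minimums, constants, centring, widths, overlaps and limits, and each library left out.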

Additional observations from a re-analysis of the deposited data

How the results depend on the processing

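Of the values recomputed under alternative settings, 174 kept their direction and their side of the threshold or stayed close to the main value. A further 17 were weaker, 3 stronger and 3 reversed, and 15 site counts moved away from the main value. Exact permutation p-values could not go below 0.333 or 0.125, so for those values only direction counted. Among the 174, counting wide peaks from 100 bases took the wide-share difference of the olfactory receptor and zinc-finger part from -17.6 to -0.95 percentage points. Those of the MHC and histone part went from -31.3 to -12.5 and from -16.2 to -6.61. With lists of equal length the log2 share ratio was -0.27 in the histone part (limma adjusted p = 0.23) and -0.18 in the olfactory receptor and zinc-finger part (limma adjusted p = 0.46), both no longer called; the latter was -0.38 with narrow peaks alone (limma adjusted p = 0.17) and ranged from -0.73 to -0.41 with 1 library left out. The MHC stayed called in every setting run, between -2.57 (wide peaks alone) and -0.97 (narrow peaks alone). The count of 1 Mb regions called, 7, became 3 with equal lists and 3 with wide peaks alone, where 3 could be tested. The 500 kb windows, chosen after seeing the data, gave 11 calls and then 3 with equal lists, 6 with the better-scoring 50%, 7 with narrow peaks, 2 with wide peaks and 5 at a minimum of 20; without a minimum 1 of 12 was higher. The 100 kb count of 1 became 0 with equal lists, the better-scoring 50%, wide peaks or a minimum of 20, since no window could then be tested, 27 of 74 without a minimum, and 1 to 3 with 1 library left out. Genome-wide shares of calls are given for the main setting only, so the counts called under other settings have no background beside them. Input-free sites in the histone part, the olfactory receptor and zinc-finger part and the MHC numbered 20, 20 and 49. They were 4, 2 and 1 with equal lists and 2, 1 and 3 with wide peaks alone. The better-scoring 50% gave 13 and 28 in the last 2 parts, and an overlap of 50% of both peaks gave 12 in the histone part. With 1 library left out they ranged from 22 to 59, 21 to 48 and 55 to 115, highest without pull-down 1, since a site then needs 1 pull-down only. The same-strand difference reversed for the MHC minus the olfactory receptor and zinc-finger part with narrow peaks alone (-1.6 percentage points, main 7.0) and for the histone part minus that part with wide peaks alone (1.9, main -5.0); the wide-share difference of that last pair ranged from -0.52 (without input 1) to 5.6 (without input 2) with 1 library left out, and reached 8.2 with the better-scoring 50% (main 2.3). The cause was not tested. Wide peaks alone left the olfactory receptor and zinc-finger part under the minimum, so that fit was not run.

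With the replicate number as a replicate block the ratios were -1.55, -1.02 and -0.57 in the MHC, the histone part and the olfactory receptor and zinc-finger part (limma adjusted p = 5.7e-30, 4.2e-11 and 0.0014). That fit keeps few degrees of freedom of its own, so these p-values rest mainly on spread pooled over all features. They are not stronger evidence than the p-values without the block. With the block, 7 regions of 1 Mb, 11 windows of 500 kb and 1 window of 100 kb were called. All of them were also called in the same direction without it. Read depth, the peak threshold and the placing of reads from repeated genes limit all counts and are not known here.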
